A study of Mus musculus with 6 samples.

Results

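The cytosolic ribosomal protein genes were taken as the protein-coding genes of the deposited table whose symbol is Rpl or Rps followed by a number, with at most 1 letter and 1 further digit, together with Rplp0, Rplp1, Rplp2 and Rpsa. This rule used names alone and gave 83 of the 54532 genes. By name, 31 of them belong to the small ribosomal subunit and 46 to the large subunit, and the other 6 are paralogs of these (Rpl3l, Rpl7l1, Rpl10l, Rpl22l1, Rpl39l and Rps27l). The 83 genes lie on 19 chromosomes, 4 of them on the X chromosome.

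RNA sequencing was performed on mouse cardiosphere-derived cells, cells grown from heart ventricle of the strain C57BL/6 and immortalised with a lentiviral telomerase transgene (iCDCs). By the study's methods the starting tissue was the epicardium, the outer layer of the ventricle. The 3 control libraries came from iCDCs at passage 30. The 3 induced libraries came from iCDCs of passage 30 given 10 µM 5-aza (5-azacytidine, a nucleoside that blocks DNA methylation and is given to drive differentiation) for 3 days, then kept for 4 weeks in IMDM with 2% FBS. The medium and length of the later culture are described differently in the methods of the study, and the labels give no separate culture for the control cells, so drug, serum and time in culture cannot be told apart. Both groups carry the transgene and come from one immortalised line, and the labels name 3 separate samples per group without saying whether these were separate cultures. The p-values therefore measure the spread between these samples only.

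A ribosome has a small subunit, which reads the messenger RNA, and a large subunit, which joins amino acids and passes the growing chain through an exit tunnel. Each ribosomal protein is needed in about equal numbers with the ribosomal RNAs, and the genes for them are among the most strongly transcribed in dividing cells. Their messenger RNAs begin with a run of pyrimidines (C and T), which lets the growth-regulating kinase mTOR control their translation together. In heart muscle a special form of one large subunit protein, Rpl3l, partly replaces Rpl3.

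The start of the messenger RNA is shown for 12 genes, because it is the sequence feature that this gene family is known for. RefSeq start sites on GRCm38.p6 were matched to 63 of the 83 genes. Each line gives 30 bases of the coding strand, 15 before and 15 from the start site on, 5′ to 3′, and capitals mark the longest run of pyrimidines within the line, which cuts off runs at its ends. The first 4 lines are the genes of the small and large subunits with the largest falls in induced cells, the next 4 are those with the smallest falls, and the last 4 are the detected paralogs, each among the genes with a RefSeq window.
Rpl13a, chr7:45128731-45128760, minus strand: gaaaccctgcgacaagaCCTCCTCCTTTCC
Rpl10a, chr17:28328456-28328485, plus strand: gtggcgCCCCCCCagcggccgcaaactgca
Rps2, chr17:24720048-24720077, plus strand: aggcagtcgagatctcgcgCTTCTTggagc
Rpl12, chr2:32961697-32961726, plus strand: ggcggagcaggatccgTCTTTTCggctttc
Rpl19, chr11:98026695-98026724, plus strand: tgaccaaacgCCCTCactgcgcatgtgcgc
Rps3a1, chr3:86142654-86142683, minus strand: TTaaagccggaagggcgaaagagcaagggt
Rpl23, chr11:97782425-97782454, minus strand: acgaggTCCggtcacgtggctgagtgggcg
Rpl26, chr11:68901551-68901580, plus strand: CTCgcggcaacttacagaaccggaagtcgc
Rpl22l1, chr3:28805493-28805522, plus strand: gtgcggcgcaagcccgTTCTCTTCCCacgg
Rpl39l, chr16:10170213-10170242, plus strand: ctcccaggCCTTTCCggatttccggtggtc
Rpl7l1, chr17:46782642-46782671, minus strand: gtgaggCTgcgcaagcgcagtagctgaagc
Rps27l, chr9:66946071-66946100, plus strand: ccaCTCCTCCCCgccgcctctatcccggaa

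Within 20 bases on either side of the start site, the longest run measured 14 bases in Rpl13a, 7 in Rpl10a and Rpl12 and 6 in Rps2, against 5 in Rpl19 and Rps3a1, 4 in Rpl26 and 3 in Rpl23. These genes were picked for their fold changes, so the contrast is a description. In the same stretch, a run of at least 6 pyrimidines on the coding strand was present in 40 of the 63 genes (63.5%) and in 36.5% of 16492 protein-coding genes with a RefSeq window. The 37 subunit genes with such a run had a median log2 fold change of -0.57 in induced over control cells, and the 20 without one had -0.49. RefSeq start sites are not measured in these cells, and a start that is off by a few bases moves the window.

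In the 300-base windows from 250 bases before to 50 after the start, the letters CCGGAAG, the core bound by ETS factors such as Gabpa, were found on either strand in 25 of the 63 genes (39.7%) and in 12.3% of all genes. AAGATGG, the core of the site of Yy1, was found in 9 (14.3%) against 6.4% of all, and a match to it can share 3 bases with a CCGGAAG match. CACGTG, which Myc and Max bind, was held by 5 genes (7.9%) against 8.1%, and TATAAA by 6 (9.5%) against 12.9%. The windows held a median of 21 CpG dinucleotides, the sites of DNA methylation in mammals, against 14 over all genes. Methylation itself was not analysed here.

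Ribosomal protein messenger RNA took a smaller part of the sequenced RNA in every induced library. The 83 genes held 7.41%, 7.63% and 7.58% of the reads in the control libraries and 4.89%, 4.25% and 5.20% in the induced libraries. The groups did not overlap, and the mean went from 7.54% ± 0.114 to 4.78% ± 0.482 (SD, n = 3 each), a ratio of 0.634. The exact two-sided permutation test over the 6 libraries gave p = 0.1, the smallest value that 3 against 3 samples allow. A share of reads is relative to all other RNA in the cell, and in bulk RNA fewer cells with high levels cannot be told apart from less RNA per cell.

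**Figure D1:**
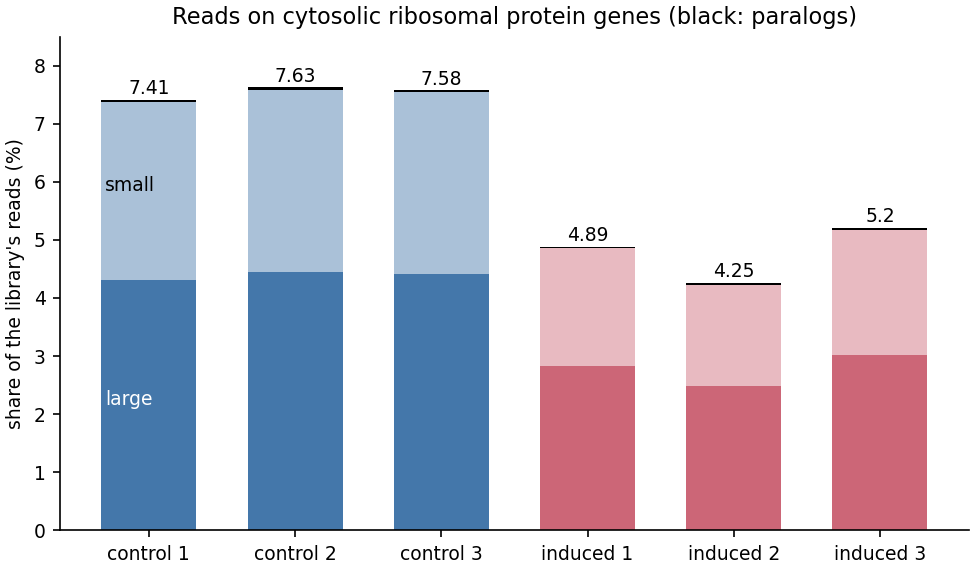
Share of all reads (percent, y axis) on the cytosolic ribosomal protein genes in each of the 6 libraries (x axis), with the large subunit in full colour, the small subunit in light colour and the paralogs in black. The number above each bar is the total, which lies between 7.41% and 7.63% in control libraries and between 4.25% and 5.20% in induced libraries.

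Of the 83 genes, 81 had enough reads to be tested. After adjustment over all 14246 tested genes (edgeR's quasi-likelihood test, Benjamini-Hochberg, threshold 0.05), 78 were lower in induced cells, 1 was higher and 2 passed in neither direction. In this comparison 64.8% of all tested genes were called, 32.2% lower and 32.6% higher, so falls were far more frequent among the ribosomal protein genes than their background share. All 3 induced libraries lay below all 3 control libraries for 74 of the 81 genes, against 34.5% of all tested genes. The median log2 fold change of the 77 subunit genes was -0.54, with quartiles of -0.67 and -0.42, and the median over all genes was -0.01. The median level of a subunit gene decreased by 31.4%. Among them, 3 fell at least 2-fold and 52 lay between -0.8 and -0.4 on the log2 scale.

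Genes of both subunits fell. In the small subunit 30 of 31 genes were lower, with a median log2 fold change of -0.51, and in the large subunit 46 of 46 were lower, with a median of -0.58. The log2 ratio of small to large subunit reads was -0.50, -0.51 and -0.50 in control libraries and -0.48, -0.51 and -0.48 in induced libraries. These ranges overlapped, and the means differed by 0.01 (exact two-sided permutation test, p = 0.4).

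**Figure D2:**
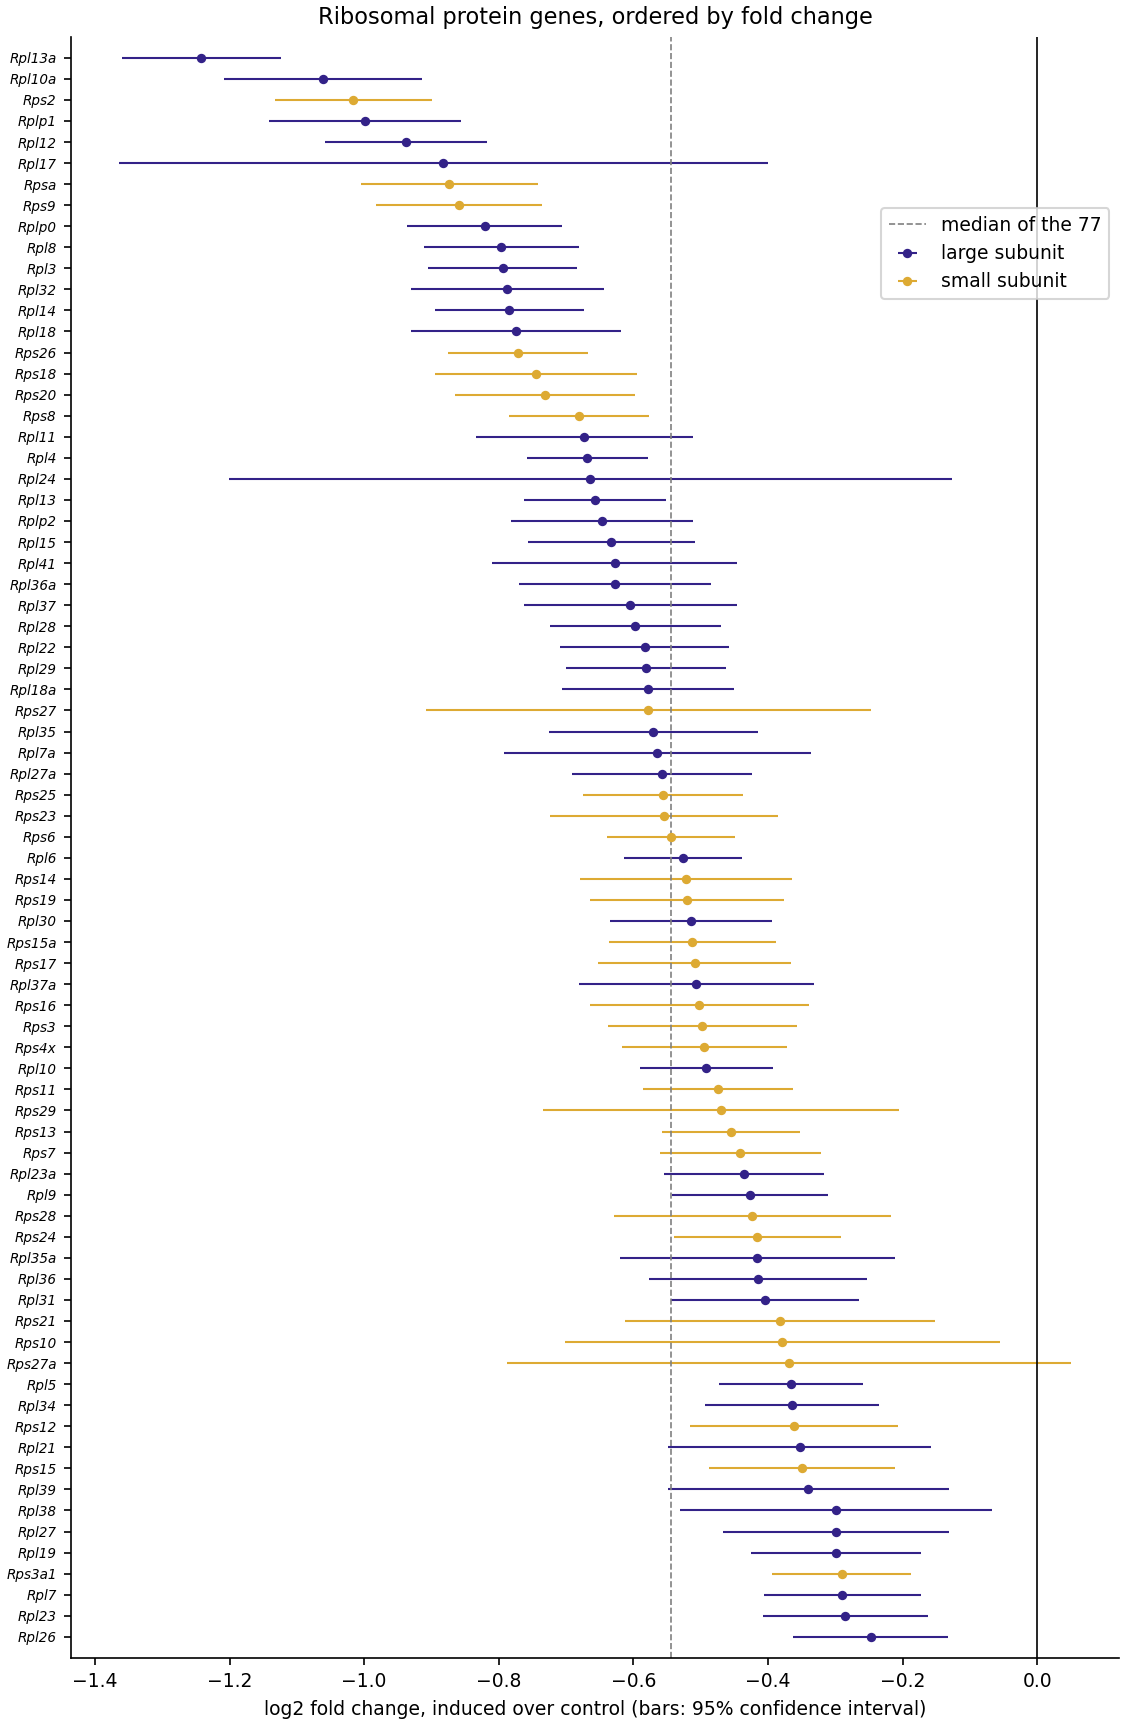
Log2 fold change in induced over control cells (x axis) of 76 of the 77 subunit genes (y axis, ordered by fold change), with the large subunit in dark blue, the small subunit in yellow and bars for the 95% confidence interval. Every point lies left of 0, from -1.24 for Rpl13a to -0.25 for Rpl26, and the interval of Rps27a crosses 0.

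The P stalk, the arm of the large subunit that recruits elongation factors, fell in all its parts. Rplp1, a tip protein of the stalk, had the highest level per length of all these genes in both groups. It measured 2179, 2350 and 2363 CPM (counts relative to the library total, scaled between libraries by TMM) in control libraries and 1202, 982 and 1266 CPM in induced libraries. Each induced library lay far below every control library, and the log2 fold change was -0.999 ± 0.068 (SE, adjusted p = 2.97e-10). Rplp0, the base protein of the stalk, measured 3712, 3874 and 3924 CPM in control libraries and 2272, 1932 and 2312 CPM in induced libraries. Its log2 fold change was -0.82 ± 0.054 (adjusted p = 2.23e-10). Rplp2, the partner of Rplp1, fell by 0.65 ± 0.064 on the log2 scale (adjusted p = 6.5e-08).

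Rpl12, which sits at the base of the stalk, went from 1161, 1223 and 1147 CPM in control libraries to 623, 551 and 669 CPM in induced libraries. The groups stood far apart and the log2 fold change was -0.94 ± 0.057 (adjusted p = 7.04e-11). Rpl10a forms the mobile stalk on the other side of the large subunit, near the exit site of transfer RNA. It measured 1221, 1219 and 1220 CPM in control libraries, a very narrow range, and 618, 492 and 646 CPM in induced libraries. This was a log2 fold change of -1.06 ± 0.070 (adjusted p = 2.08e-10).

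Where the messenger RNA enters the small subunit, the proteins Rps2 and Rps3 line the channel. Rps2 went from 2872, 3108 and 3133 CPM to 1574, 1347 and 1586 CPM, with no overlap. It was the largest fall of the small subunit, with a log2 fold change of -1.02 ± 0.055 (adjusted p = 1.34e-11). Rps3 measured 1730, 1798 and 1790 CPM in control libraries and 1320, 1065 and 1381 CPM in induced libraries. Its fall was smaller, 0.50 ± 0.067 on the log2 scale (adjusted p = 3.11e-06), and the 95% intervals of these genes, -1.13 to -0.90 for Rps2 and -0.64 to -0.36 for Rps3, did not meet. The difference between them was not itself tested. Rpsa, a small subunit protein also known as a laminin receptor, went from 2777, 2910 and 2901 CPM to 1639, 1348 and 1701 CPM (log2 fold change -0.87 ± 0.062, adjusted p = 6.56e-10).

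The 5S particle of the large subunit is made of the 5S RNA with Rpl5 and Rpl11, and when ribosome assembly fails these proteins bind Mdm2, the regulator of p53. Rpl5 measured 1049, 1048 and 1028 CPM in control libraries and 787, 756 and 881 CPM in induced libraries. The groups were separate, with a log2 fold change of -0.37 ± 0.051 (adjusted p = 4.46e-06). Rpl11 measured 861, 913 and 901 CPM against 594, 460 and 624 CPM. It fell by 0.67 ± 0.076 on the log2 scale (adjusted p = 3.7e-07), and its interval, -0.83 to -0.51, did not meet that of Rpl5, -0.47 to -0.26. A test of the difference between Rpl5 and Rpl11 was not made.

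All 9 listed proteins of the exit tunnel were lower, as were 76 of all 77 subunit genes, with a median log2 fold change of -0.44. Rpl26, at the rim of the tunnel, had the smallest fall of the 77 genes. It measured 636, 659 and 647 CPM in control libraries and 549, 495 and 593 CPM in induced libraries, still without overlap (log2 fold change -0.25 ± 0.055, adjusted p = 0.000637). With an offset for transcript length, a setting added after the data were seen, its log2 fold change was -0.14. Rpl4, which lines the narrow part of the tunnel, fell by 0.67 ± 0.043 (adjusted p = 1.35e-10). Rpl39, a very small protein in the tunnel wall, measured 492, 534 and 529 CPM against 411, 318 and 499 CPM. The third induced library lay within the control range, the log2 fold change was -0.34 ± 0.099 (adjusted p = 0.00604), and without the second induced library it was -0.18.

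Among the genes on the X chromosome, all 4 were lower (Rpl10, Rpl36a, Rpl39 and Rps4x), with a median log2 fold change of -0.49. Rpl10, one of the last proteins to join the large subunit, went from 1449, 1461 and 1476 CPM to 1047, 968 and 1105 CPM (log2 fold change -0.49 ± 0.047, adjusted p = 3.45e-08). Rps4x, a small subunit protein, had a log2 fold change of -0.49 ± 0.058 (adjusted p = 5.85e-07). The genes known from Diamond-Blackfan anaemia, an inherited failure of red cell production caused by loss of 1 copy of a ribosomal protein gene, were lower in 21 of 21 cases. Their median log2 fold change was -0.47. Both lists stand beside 76 of all 77 subunit genes called lower, with a median of -0.54, and 32.2% of all tested genes. The calls of Rps10 and Rps27, both among the 21, were not stable, as described below.

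Levels between genes were compared per kilobase of the gene length in the deposited table. In control cells Rplp1 (4604 CPM per kb), Rplp0 (2313) and Rps2 (1660) stood highest, and in induced cells Rplp1, Rplp0 and Rps15 did. Rps15, in the head of the small subunit, went in rank from 5 to 3 while its own level fell from 862, 897 and 902 CPM to 734, 596 and 759 CPM (log2 fold change -0.35 ± 0.066, adjusted p = 0.00014). At the other end, Rps10 and Rpl24 stood at 2.22 and 3.44 CPM per kb in control cells, and both share most of their sequence with pseudogenes that held more reads than they did.

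Of the paralogs, Rpl39l was the only ribosomal protein gene called higher in induced cells. It replaces Rpl39 in the ribosomes of male germ cells. The control libraries held 0, 0 and 1 reads and the induced libraries 67, 40 and 82 reads, or 3.56, 2.10 and 4.29 CPM. The ratio of pooled levels was 192, with an exact 95% interval of 34.0 to 7622 that covers counting error only (edgeR adjusted p = 8.8e-09). Even so, its induced level was 3.32 ± 1.12 CPM (SD, n = 3) beside 409 CPM for Rpl39, its related gene of the tunnel wall. No near-identical copy of Rpl39l was found among annotated transcripts of genes with at least 10 reads over all libraries.

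The stretch before the RefSeq start of Rpl39l is shown because, of the 83 genes, this one alone went from almost no reads to clear detection. Its 300-base window held 17 CpG dinucleotides, beside medians of 21 for the 63 genes with a window and 14 over all genes. The stretch shown covers chr16:10169978-10170227 (GRCm38.p6, plus strand, the 250 bases before the start), and capitals mark its 12 CpG dinucleotides.
Rpl39l: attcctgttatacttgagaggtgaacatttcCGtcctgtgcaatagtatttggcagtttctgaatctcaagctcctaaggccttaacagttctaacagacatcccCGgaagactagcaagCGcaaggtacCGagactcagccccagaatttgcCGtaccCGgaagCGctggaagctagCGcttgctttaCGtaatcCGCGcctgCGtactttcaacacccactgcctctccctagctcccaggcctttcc

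The other detected paralogs were lower or were not called. Rps27l, a target of p53, measured 117.3, 123.5 and 119.8 CPM in control libraries and 131, 112 and 142 CPM in induced libraries. The groups overlapped and the test was not passed (log2 fold change 0.09, 95% interval -0.05 to 0.24, adjusted p = 0.233). Without the second induced library it was called higher, at 0.19 (adjusted p = 0.000561), and with the length offset at 0.21 (adjusted p = 0.000397). It was 0.02 (adjusted p = 0.777) without the third induced library and 0.06 (adjusted p = 0.469) with library totals alone. Rpl7l1, which acts in large subunit assembly, went from 147, 140 and 143 CPM to 129, 124 and 133 CPM (log2 fold change -0.16 ± 0.050, adjusted p = 0.0107). This call was lost without the first control library (-0.13, adjusted p = 0.0583). Rpl22l1 went from 85.1, 90.2 and 87.8 CPM to 57.4, 62.6 and 69.6 CPM, with a log2 fold change of -0.47 ± 0.064 (adjusted p = 3.44e-06).

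Ratios of each paralog to its related gene within a library do not depend on the scaling. Relative to Rps27, Rps27l stood at log2 ratios of -1.49, -1.42 and -1.42 in control libraries and -0.08, -0.96 and -1.08 in induced libraries, without overlap. This ratio moves with the split of reads between Rps27 and its copy Rps27rt: with copy reads added it was -1.68, -1.59 and -1.69 in control and -1.41, -1.30 and -1.45 in induced libraries, and the difference between the means went from 0.74 to 0.26 (exact two-sided permutation test, p = 0.1 for both). For Rpl7l1 over Rpl7 the mean log2 ratio differed by 0.14 and for Rpl22l1 over Rpl22 by 0.11. For Rpl39l over Rpl39, with 0.5 reads added to both, it differed by 6.82. The exact two-sided permutation test gave p = 0.1 for 3 of the 4 pairs and 0.3 for Rpl22l1, or 0.133 and 0.3 after adjustment over the 4 pairs, where 0.1 is the smallest p possible.

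**Figure D3:**
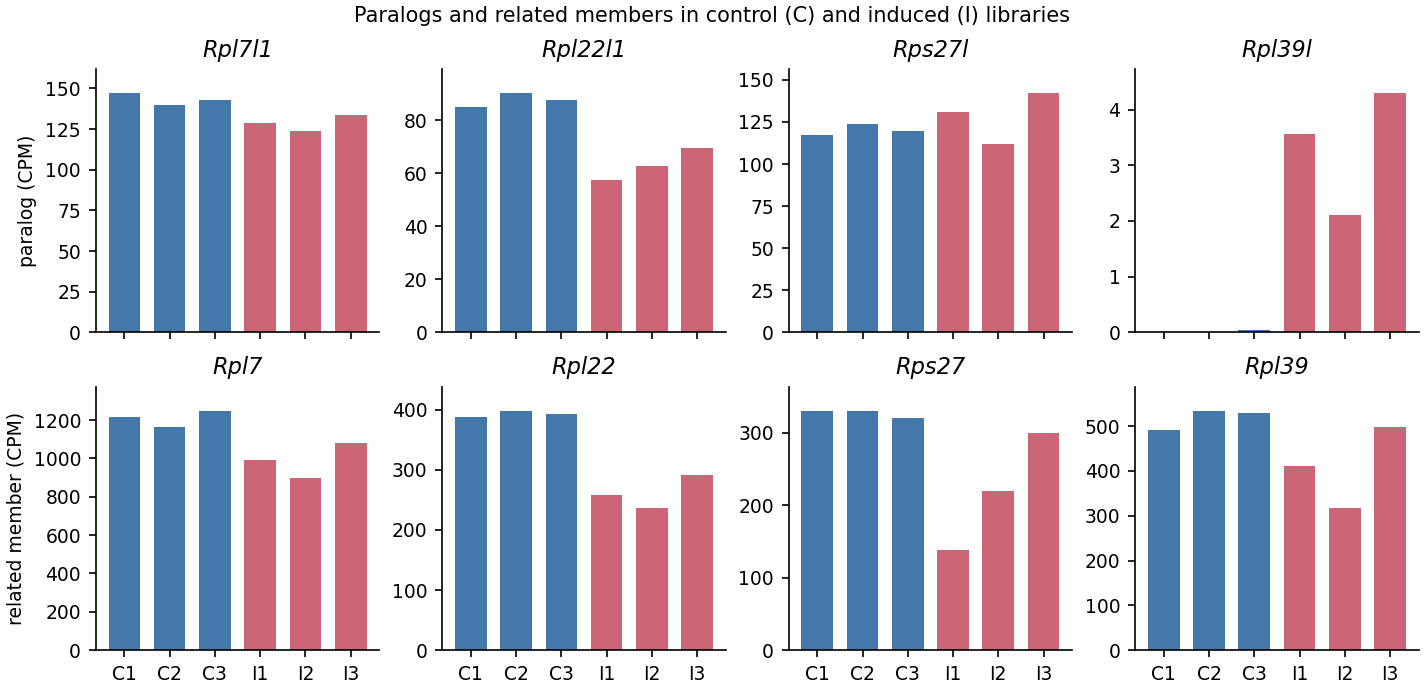
Level in CPM (y axes, each from 0) of the 4 detected paralogs (upper row) and their related genes (lower row) in control libraries C1 to C3 (blue) and induced libraries I1 to I3 (red). Rpl39l is seen in the induced libraries at 2.10 to 4.29 CPM beside a single control read, while Rpl39 itself stands at 318 to 534 CPM.

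Rpl3l, the form of Rpl3 in heart and skeletal muscle, had 0 reads in all 6 libraries, and so had Rpl10l, a form of Rpl10 in testis. A count of 0 allows up to 0.151 to 0.158 CPM per library. Rpl3 itself, the large subunit protein that Rpl3l partly replaces in heart muscle, went from 1942, 1964 and 1945 CPM to 1145, 1014 and 1215 CPM (log2 fold change -0.79 ± 0.053, adjusted p = 2.27e-10). Outside the naming rule, Rps4l, annotated as a transcribed pseudogene of the Rps4x family, was counted at 1, 2 and 2 reads in control libraries and 30, 16 and 15 in induced libraries. The ratio of pooled levels was 12.4 (exact 95% interval 5.03 to 39.5).

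Near-identical copies of many of these genes also held reads. Whether such reads came from the gene or from its copy was not tested. The search covered annotated transcripts of other genes with at least 10 reads over all libraries, and each copy was given to its best match. Those with at least 95% identity over at least 50% of their length were found for 74 of the 83 genes. They were 290 copies in all, of which 276 are pseudogenes by biotype. These copies held 0.542%, 0.556% and 0.555% of the reads in control libraries and 0.416%, 0.346% and 0.391% in induced libraries. With their reads added to the genes they copy, 77 were lower and 1 higher, and the ratio of the shares was 0.639 in place of 0.634. The 72 subunit genes with a copy had a median log2 fold change of -0.52, and the 5 without one had -0.62.

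For a few genes the split decided the value. Rps27, a zinc-finger protein of the small subunit, measured 329, 330 and 320 CPM in control libraries and 138, 219 and 299 CPM in induced libraries, a wide spread (log2 fold change -0.58 ± 0.157, adjusted p = 0.0036). Of the reads on Rps27 and the intronless gene Rps27rt together, Rps27rt held 12.4%, 11.2% and 16.9% in control libraries and 60.4%, 20.7% and 23.1% in induced libraries. The first induced library stood apart in this split. As CPM without TMM scaling the sum was 381, 377 and 388 in control and 341, 276 and 382 in induced libraries, so that the third induced library lay within the control range. With copies added, Rps27 had a log2 fold change of -0.16 (adjusted p = 0.0786) and was no longer called, and without the first induced library it had -0.33 without copies.

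Rpl17, a protein of the exit tunnel, measured 501, 405 and 332 CPM in control libraries and 106, 263 and 303 CPM in induced libraries. Its log2 fold change was -0.88 ± 0.229 (adjusted p = 0.00252), or -0.54 without the first induced library. It was not called by DESeq2 (-0.87, adjusted p = 0.0942) or by limma on log2(FPKM + 0.1) (-0.99, adjusted p = 0.0793). The copy Rpl17-ps10 held 77.8% of the joint reads in that library and 38.6% and 42.8% in the other induced libraries, against 21.9% to 49.2% in control libraries. On the same scale the sum was 652, 651 and 659 in control and 470, 428 and 519 in induced libraries, far steadier than Rpl17 alone. With all copies added its log2 fold change was -0.44 (adjusted p = 2.56e-07).

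**Figure D4:**
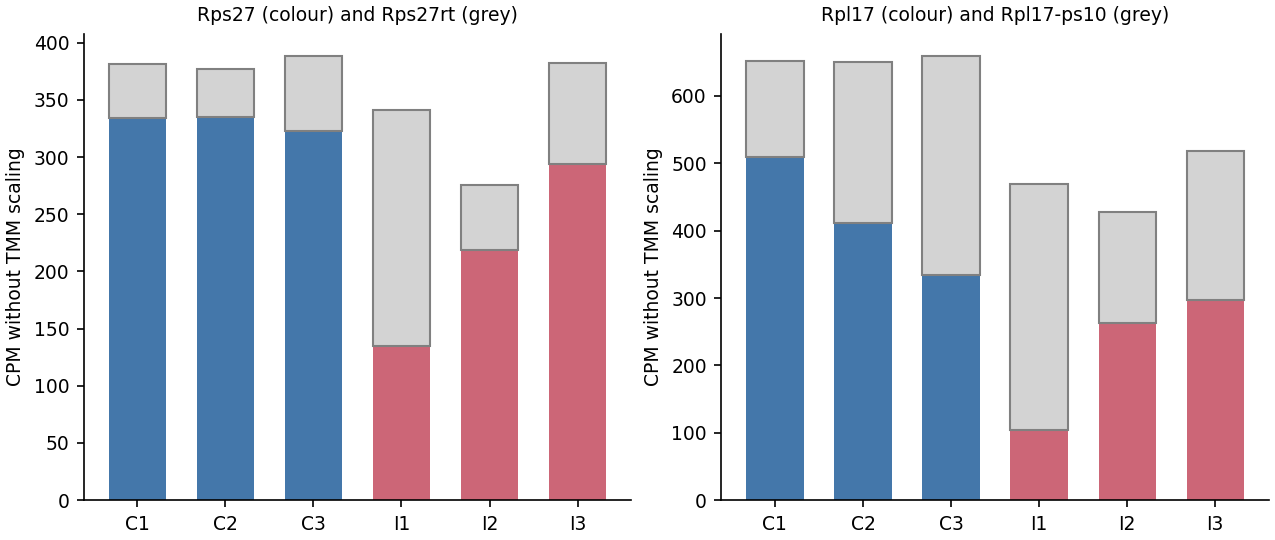
CPM without TMM scaling (y axes) on Rps27 and Rps27rt (left) and on Rpl17 and Rpl17-ps10 (right), stacked for control libraries C1 to C3 and induced libraries I1 to I3, with the gene in colour and its copy in grey. In I1 the copy holds 60.4% and 77.8% of the stack, while the stack heights of I1 lie between those of I2 and I3.

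Rps10 had 3.72 to 5.45 CPM by itself, since 98.6% of the reads on it and its copies were counted on the copies. Its own log2 fold change was -0.38 (adjusted p = 0.0383), a call that was lost when any 1 of the 6 libraries was left out, and with copies added it was -0.55 (adjusted p = 1.42e-08). Rpl24 also had most reads on copies, 77.5%. Its log2 fold changes were -0.66 alone (adjusted p = 0.0298) and -0.51 with copies (adjusted p = 0.000477). The call of Rpl24 alone was lost without control replicate 1 (-0.56), control replicate 2 (-0.58) or induced replicate 3 (-0.38). With copies added, Rpl24 still held only 185 to 321 reads per library, against 4778 to 8138 for Rps10. The copies found thus do not account for the low count of Rpl24. Rpl13a had the largest fall of all, from 104, 111 and 108 CPM to 46.8, 43.0 and 46.8 CPM (log2 fold change -1.24 ± 0.056, adjusted p = 8.83e-13). Its level was low for a ribosomal protein gene, and why was not tested. A near-identical copy is annotated, which held 4.79% of the joint reads. With the copy added, the log2 fold change of Rpl13a was -1.23 (adjusted p = 2.7e-13), so these reads changed its value little.

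Rps27a, which is made as a fusion with ubiquitin, was the subunit gene that did not pass the test. It measured 356, 254 and 243 CPM in control libraries and 329, 137 and 194 CPM in induced libraries. The first library of each group was high, and the log2 fold change was -0.37 with a 95% interval of -0.79 to 0.05 (adjusted p = 0.114). Without the first induced library it was called, at -0.78, and without the first control library it stood at -0.17 (adjusted p = 0.504). Without the second induced library it was -0.12 (adjusted p = 0.449), and with no filter on low counts it was called at -0.36 (edgeR adjusted p = 8.18e-12). The levels of the groups overlapped, and why the setting without a filter gave so small a p-value was not tested.

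The induced libraries differed among themselves more than the control libraries did. The median level of the 77 subunit genes was 70.7%, 58.8% and 74.9% of the control mean in the 3 induced libraries, and the second induced library was the lowest of the 3 for 70 of the 77 genes, against 37.0% of all tested genes. The median coefficient of variation was 2.36% in control and 11.3% in induced libraries, beside 2.30% and 4.53% for the 2108 tested genes of at least 100 CPM. Without the second induced library 76 genes were lower and 2 higher, and the median over the 81 tested genes was -0.44 in place of -0.52. For Rpl27, Rpl35a, Rpl38, Rpl39, Rps21, Rps28 and Rps29 the log2 fold change shrank by more than 1.5 times without it, to between -0.26 for Rps29 and -0.13 for Rpl38, and the call of Rpl38 was lost (adjusted p = 0.0708), as it was without the first induced, the second control or the third control library (-0.28, -0.29 and -0.27). Without the third induced library Rpl38 stood at -0.49 (adjusted p = 2.91e-05). Leaving out the second control library took Rpl21 from -0.35 to -0.20 (adjusted p = 0.0337). With all libraries and the reads of its copies added, 55.5% of the joint reads, Rpl21 stood at -0.49 (adjusted p = 1.18e-07).

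**Figure D5:**
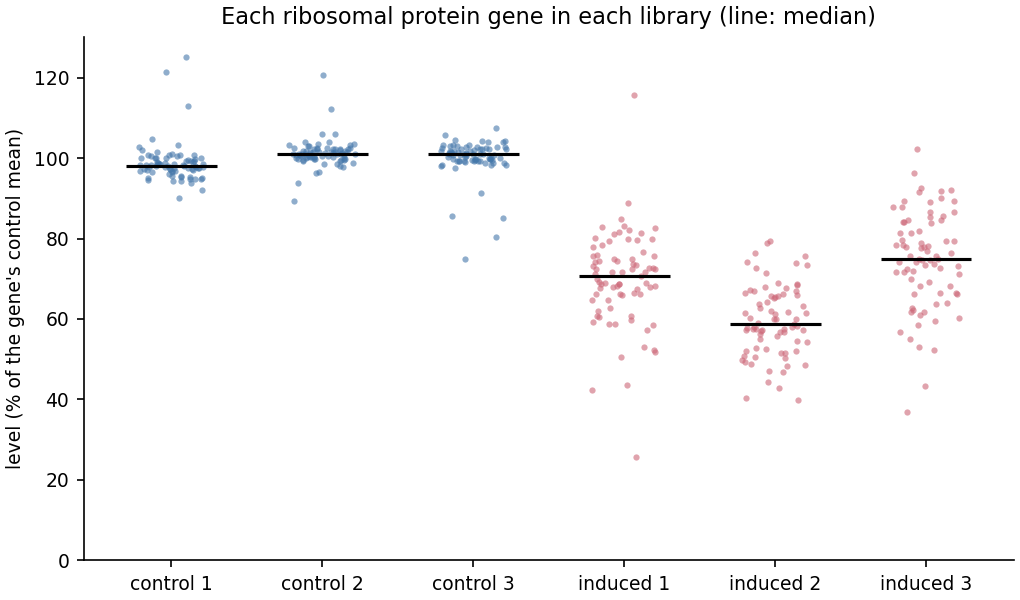
Level of each of the 77 subunit genes in each library (x axis) as a percentage of its mean in the control libraries (y axis), with 1 point per gene and a line at the median. Medians stand at 98.1%, 101% and 101% in control libraries and at 70.7%, 58.8% and 74.9% in induced libraries.

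Short transcripts in general were low in the second induced library. Among other tested genes of at least 20 CPM, those whose longest annotated transcript had up to 800 bases stood at a median of -0.25 on the log2 scale relative to the mean of the other induced libraries, and those above 3000 bases at 0.05. The subunit genes stood at -0.33 and -0.25 in these classes, and their median transcript had 1094 bases against 3223 for all tested genes. For the comparison of induced with control cells, the other genes had median log2 fold changes of 0.10, 0.01, 0.01 and 0.04 from the shortest to the longest of 4 classes, and the subunit genes had -0.44, -0.58, -0.56 and -0.51. With the length offset, 76 of the 81 genes were lower and 2 higher, and the median was -0.50.

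Other parts of the translation machinery were read from lists, beside a background of 32.2% of all tested genes called lower and 32.6% called higher. Among ribosomal genes that the naming rule leaves out, 3 of 5 were lower and 1 was higher. Rack1, a signalling protein on the small subunit, fell by 0.73 ± 0.057 on the log2 scale (adjusted p = 1.89e-09), and Fau, which encodes a ribosomal protein joined to a relative of ubiquitin, fell by 0.17. Rps27rt, described above, was the higher gene (log2 fold change 1.22, adjusted p = 0.00146). It measured 46.5, 41.7 and 64.96 CPM in control libraries and 210.1, 57.0 and 89.8 CPM in induced libraries. The first induced library carried most of this, the second lay within the control range, and the call was not made by DESeq2 or limma. Of 8 elongation factor genes 7 were lower, with a list median of -0.65, among them Eef1a1 (-0.65), which brings transfer RNA to the ribosome, and Eef2 (-0.77), which moves the ribosome along. Eif5a2 was higher (1.01). Of 21 initiation factor genes 15 were lower and 2 higher, with a median of -0.31, the lowest being Eif4b (-0.97) and the highest Eif4a2 (0.63).

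Other RNAs known for a pyrimidine start, among them the non-coding Gas5, were lower in 7 of 8 cases, with a median of -0.65, from Hnrnpa1 (-1.25) and Pabpc1 (-0.996) to Naca (-0.13). Tpt1, a growth-related member of this class, was not called (log2 fold change 0.04, adjusted p = 0.527). Of 7 tested chaperones that escort ribosomal proteins, 4 were lower and 2 higher. The background for both lists is the same 32.2% lower and 32.6% higher. Grwd1, which escorts Rpl3, fell by 0.92, and Tsr2, which escorts Rps26, rose by 0.39.

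Genes that regulate ribosome production were mixed, with 5 of 15 lower, 4 higher and 6 not called, and a list median of 0.00, near the background. Myc, a transcription factor that drives ribosome production, fell by 1.65 ± 0.057 (adjusted p = 2.17e-14). The kinase gene Mtor (0.20), its partner Rptor (0.19) and its activator Rheb (0.41) were higher and the inhibitor Tsc2 (-0.32) was lower. The remaining calls were Eif4ebp2 (-0.25), Gabpa (-0.20) and Yy1 (-0.14), all lower, and Max (0.18), higher. Tsc1 (0.05) and Rps6kb1 (-0.17) were among the genes not called. Larp1, which binds messenger RNAs with a pyrimidine start, was not called (log2 fold change 0.00, adjusted p = 0.977). Mitochondrial ribosomal proteins, which serve a separate ribosome, were lower in 31 of 77 tested genes, higher in 7 and not called in 39, with a median of -0.08, beside the background of 32.2% lower and 32.6% higher. Their share of reads had a mean of 0.276% in control and 0.247% in induced libraries (exact two-sided permutation test, p = 0.1).

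Dividing-cell genes were also lower in induced cells. All 10 listed (such as Mki67, Top2a and Cdc20) were lower, beside 32.2% of all tested genes, with a median log2 fold change of -1.80. Their summed levels were 809 to 855 CPM in control libraries and 215, 231 and 225 CPM in induced libraries. The second induced library, where the ribosomal protein genes were lowest, thus had the highest sum of the induced libraries. Their part in the change of the ribosomal protein genes was not tested. The cardiosphere markers Eng, Thy1, Ly6a and Tbx18 summed to 562 to 572 CPM in control and 614 to 640 CPM in induced libraries. Thy1 (0.54) and Eng (0.12) were higher and Ly6a (-0.57) and Tbx18 (-0.33) lower in induced cells on the log2 scale. Of 6 leukocyte markers 5 had 0 reads throughout, with sums of at most 0.159 CPM, and 5 endothelial markers, 1 of them at 0 reads throughout, summed to at most 0.405 CPM. The 6 cardiomyocyte markers summed to 1.501 to 1.63 CPM in control and 2.55 to 3.05 CPM in induced libraries. Most of these reads were on Tnni3, which was not called (log2 fold change 0.41, adjusted p = 0.144), and each of the others had at most 10 reads in any library. Among these, Ryr2 had 0, 0 and 1 reads in control libraries and 9, 10 and 10 in induced libraries, and was not tested.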

How the data were processed

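RNA-seq libraries were made with the NEBNext Ultra kit from total RNA. The authors deposited raw read counts per gene and library, and FPKM values in the same table. The submitters' processing notes name HISAT2 2.0.5, featureCounts 1.5.0-p3, DESeq2 1.16.1 and build mm10. Strand setting and the handling of reads with several matches are not given in the sources used here, so overlapping and copied genes are uncertain. The deposited fold changes, p-values and Gene Ontology tables are the authors' comparisons and were not used. Of the 83 genes, 81 have the coordinates of GENCODE M21.

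Total counts were 19041133 to 19823369 per library. Genes were kept by filterByExpr (minimum count 10, total 15), scaled by TMM and tested two-sided with edgeR 4.0.16 in R 4.3.3 at an adjusted p of 0.05. No block was used. Intervals of log2 fold changes come from the edgeR fit and include the spread between libraries. Exact intervals of pooled ratios and limits of a 0 (3 counts) cover counting error only. Copies were found with blastn 2.17.0 on GENCODE M21 transcripts.

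The genes, lists and tests were chosen with earlier results of these data known. Named genes were the paralogs, P stalk, 5S, channel and X-linked lists, the 5 largest falls and rises, the 3 highest and lowest per length and the 3 nearest no change. Of each other list, up to 3 genes with the smallest p were named. Rpl3, Rpl4, Rpl8, Rpl21, Rpl22, Rpl27, Rpl35a, Rpl38, Rps21, Rps27, Rps27a, Rps28, Rps29, Rpl19, Rpl23, Rps3a1, Rpl17, Naca, Tpt1, Gas5 and Tnni3 were named after their values were seen. The same holds for Rpl30, Rpl37, Fau, Eif5a2, Eif4a2, Eef1d, Mtor, Rptor, Larp1, Eif4ebp2, Gabpa, Yy1, Max, Tsc1, Rps6kb1 and Ryr2. Alternatives were median-ratio size factors, library totals, TMM without these genes, no filter, a stricter filter (mean count 10, 1 CPM in 3 libraries), a replicate block, each library left out, pseudogene reads added, limma 3.58.1 on log2(FPKM + 1) and log2(FPKM + 0.1), DESeq2 1.42.0 and an adjusted p of 0.01. Adding copy reads, and the length offset (a loess curve per library with a span of 0.4), were chosen once results had been seen. RefSeq start sites on chromosome 18 were left out of the printed windows, and a few genes of the family and lists are counted but not reported here by name.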

Additional observations from a re-analysis of the deposited data

How the results depend on the processing

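Between 66 and 79 of the 81 genes were lower under the alternatives, and their median log2 fold change ranged from -0.59 to -0.44. The lowest numbers came with limma on log2(FPKM + 0.1) and log2(FPKM + 1) (66 and 70) and with DESeq2 (69). Calls of Rpl21, Rpl27, Rpl38, Rpl39, Rps21, Rps27 and Rps29 were lost under all 3 of these. Among the 45 genes that the naming rules gave, 824 of 854 values kept direction and side of the threshold, 28 lost the call, 2 gained it (Rps27l) and 0 turned. Genes named after their values were seen are outside this count, among them Rps27a, whose call was gained with no filter, with the block and without the first induced library, and Rpl38. Of 291 other values, 289 stayed and 2 moved: ribosomal genes outside the naming rule had 2 calls of 5 under limma on log2(FPKM + 1) and 2 under log2(FPKM + 0.1) in place of 4. The cause was not tested. Leaving out 1 library each, 75 to 77 genes were lower and the ratio of read shares ran from 0.606 to 0.669. Library totals alone moved all genes by -0.04 on the log2 scale.

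Deviations of same-numbered control and induced libraries correlated across genes at -0.002, -0.015 and 0.027, so no pairing by replicate number was seen over all genes. A correlation over all genes cannot show a pairing limited to some of them. With a replicate block 80 genes were called, 79 of them lower, the median was -0.53, Rps27a was gained (-0.44, adjusted p = 0.000264), and the permutation of the share within numbers gave p = 0.25, its smallest value. At 3 libraries a group, permutation tests of single values cannot pass 0.05, and genes of a few CPM such as Rps10 and Rpl24 carry too few reads of their own for a firm call.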

Other observations

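The ribosomal protein genes on chromosome 15 (Rpl3, Rpl8, Rpl30 and Rpl37) had a median log2 fold change of -0.70, against -0.53 for the 73 subunit genes on other chromosomes. Of all 561 tested genes on chromosome 15, 288 were lower and 115 higher in induced cells, with a median of -0.24, while the median over all tested genes was -0.01. Myc, Eef1d, Eif4b, Eif3l, Pabpc1 and Hnrnpa1, named above or listed with them, also lie on chromosome 15. Copy number of this chromosome was not analysed here.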
